A study of Mus musculus with 3 samples.

Results

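A group of mature microRNAs (miRNAs) that are widely studied in inflammation are described here, in cementoblasts of the mouse line OCCM-30 kept for 0, 7 and 14 days in a medium that induces cementum formation. They are the 9 listed names mmu-miR-155-5p, mmu-miR-146a-5p, mmu-miR-146b-5p, mmu-miR-21a-5p, mmu-miR-21a-3p, mmu-miR-31-5p, mmu-miR-31-3p, mmu-miR-142a-3p and mmu-miR-142a-5p, out of 1976 mature names in the deposited miRNA counts. All 9 reached 10 counts per 1000000 counts of the library (CPM) in at least 1 library. The list was chosen by name with the counts of these miRNAs in these same 3 libraries known, so the levels and ratios below are descriptions, with no test. Cementum is the hard tissue that covers the tooth root and holds the ligament fibres, cementoblasts form it, and OCCM-30 is an established line of such cells.

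The day 0 culture had received no cementogenic induction, and the day 7 and day 14 cultures had been induced for those times. All cultures carried the wt genotype and came from the same cell line. Total RNA gave 1 gene library and 1 miRNA library for each of the 3 time points, so no value has a replicate error. No uninduced culture of the same age as the induced ones was analysed here, so time in culture and induction cannot be told apart. A 95% interval printed here covers counting error only, and fewer cells making a miRNA cannot be told apart from less of it per cell.

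A miRNA is cut from a hairpin precursor by Drosha and then Dicer, and 1 strand, the 5p or the 3p arm, is usually kept in an Argonaute protein. There its seed, bases 2 to 8 from the 5′ end, pairs with messenger RNAs and lowers their stability or translation. Transcription of miR-155 and miR-146a is known to be driven by NF-κB in innate immune cells, where miR-155 lowers Socs1 and miR-146a lowers Traf6 and Irak1. miR-21 is abundant in many cell types and is a known target of STAT3 and AP-1. In bone-forming cells miR-31 is known to act on osterix (Sp7), and miR-142 is best known from blood cells.

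The sequences are shown because miR-146a-5p and miR-146b-5p share a seed while the other members do not. They are the deposited mature sequences, written 5′ to 3′ with T for U and with the seed in capitals, and all 9 were the same in RefSeq. The 9 members carry 8 different seeds.
miR-155-5p: tTAATGCTaattgtgataggggt
miR-146a-5p: tGAGAACTgaattccatgggtt
miR-146b-5p: tGAGAACTgaattccataggct
miR-21a-5p: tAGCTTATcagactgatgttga
miR-21a-3p: cAACAGCAgtcgatgggctgtc
miR-31-5p: aGGCAAGAtgctggcatagctg
miR-31-3p: tGCTATGCcaacatattgccatc
miR-142a-3p: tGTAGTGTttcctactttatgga
miR-142a-5p: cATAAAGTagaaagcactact

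On the GRCm38 (mm10) build, miR-155-5p lies at chr16:84714143-84714165 on the plus strand. miR-146a-5p lies at chr11:43374435-43374456 on the minus strand, and miR-146b-5p at chr19:46342790-46342811 on the plus strand. Both arms of miR-21a and of miR-142a also come from chromosome 11, with miR-21a-5p at chr11:86584120-86584141 on the minus strand and miR-142a-3p at chr11:87756903-87756925 on the plus strand. miR-31-5p lies at chr4:88910614-88910635 on the minus strand. The miR-146 pair differs by G18A and T21C, counted from 1 at the 5′ end of miR-146a-5p with its base first, so both differences lie outside the seed. The mature members are 21 to 23 bases long, and no length correction was applied. How evenly different miRNAs were captured in a library was not tested. Abundance, and ratios between miRNAs, are therefore those of counts.

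The miRNA libraries held 34855863, 28729986 and 20443074 counts at the labelled day 0, 7 and 14. Scaling by the trimmed mean of M values (TMM) gave factors of 0.864, 1.46 and 0.795, so a ratio of the library labelled day 7 over that labelled day 0 was 1.69-fold larger with total counts than with TMM. For the labels day 14 over day 7 the scalings differed by 1.83-fold, and for day 14 over day 0 by 1.09-fold. The levels of every member are therefore given with both. By rank correlation over 392 miRNAs, the libraries labelled day 14 and day 0 were the most alike (rho = 0.984), while the one labelled day 7 stood at 0.940 to day 0 and 0.905 to day 14. Over 14906 genes the gene libraries of day 14 and day 7 were the most alike (0.988), against 0.946 for day 14 and day 0. These correlations are descriptions over features of single libraries.

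Several miRNAs did not follow, by label, the genes in which they lie. A mature miRNA need not follow its host gene even when labels are right, and the cause was not tested. H19, an imprinted RNA that contains miR-675, had 2, 26182 and 13475 counts in the gene libraries of day 0, 7 and 14. Its miR-675-5p had 33, 2 and 49 counts in the miRNA libraries of the same labels. Thus miR-675-5p was lowest under the label at which H19 was highest. Slit2, the host of a miR-218 hairpin, had 858, 19 and 45 counts, while miR-218-5p, which can also come from another hairpin, had 15559, 38538 and 6015. The highest miR-218-5p count again stood under the label with the lowest host count. Dnm3os, host of miR-199a and miR-214, had its lowest level on day 0 (101 CPM), whereas miR-199a-5p was lowest in the library labelled day 7 (12707 CPM, TMM). Not every miRNA ran wholly against its host. Mest, host of miR-335, had 485, 26 and 154 counts, and miR-335-5p had 2662, 1704 and 499. Both were highest under the label day 0, but Mest was lowest under day 7 and miR-335-5p under day 14. The other arm, miR-335-3p, with 1276, 4106 and 290, was highest under day 7. Whether the labels of the gene and miRNA libraries match cannot be told from the files, so each miRNA library is called by its label and none was reassigned.

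**Figure D1:**
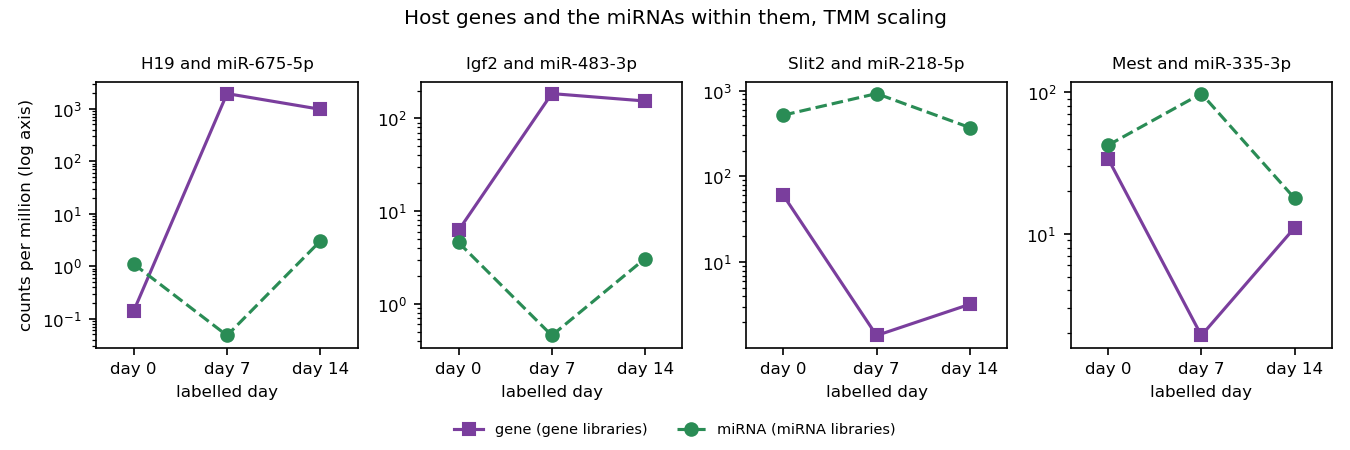
CPM (log axis, TMM scaling) of 4 host genes in the gene libraries (squares, solid lines) and of a miRNA within each in the miRNA libraries (circles, dashed lines), by labelled day, 1 library per point. H19 and Igf2 were highest at day 7, where miR-675-5p and miR-483-3p were lowest; Slit2 and Mest were lowest at day 7, where miR-218-5p and miR-335-3p were highest; miR-335-5p, not plotted, was highest at day 0 as Mest was.

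miR-155-5p and miR-146a-5p stood highest in the library labelled day 7 and lowest in that labelled day 14. miR-146b-5p, miR-31 and miR-142a had their lowest TMM-scaled levels in the library labelled day 7. miR-21a-5p, the most abundant member, differed little between labels by TMM. A member is said to rise or fall here when its log2 ratio, with 0.5 CPM added to each level, was at least 1 in size (2-fold), its higher level was at least 10 CPM and its counting interval excluded 1. Printed folds are plain ratios of the scaled counts.

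**Figure D2:**
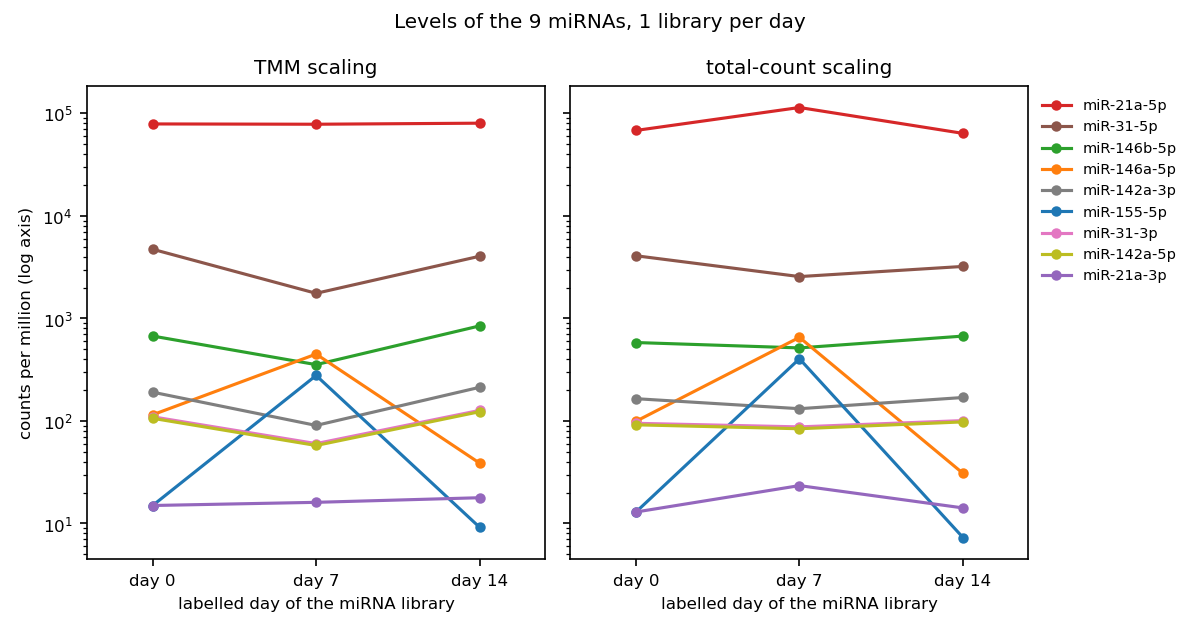
CPM (log axis) of the 9 miRNAs in the libraries labelled day 0, 7 and 14, with TMM scaling on the left and total-count scaling on the right; each point is 1 library. miR-155-5p and miR-146a-5p peak at the label day 7 in both panels, while miR-21a-5p is level with TMM scaling and highest at day 7 with total counts.

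mmu-miR-155-5p, an amplifier of inflammatory signalling in macrophages and lymphocytes, had 450, 11624 and 149 counts in the libraries labelled day 0, 7 and 14. These were 14.9, 278 and 9.17 CPM with TMM scaling, and 12.9, 405 and 7.29 CPM with total counts. Most of the miR-155-5p counts of the series were thus in 1 library. Against the library labelled day 0, the library labelled day 7 was 18.6-fold higher (interval 16.9 to 20.5) with TMM and 31.3-fold higher (28.5 to 34.5) with total counts. This was the highest ratio of the 385 miRNAs that reached 10 CPM, and also of the 398 that did so with total counts. The library labelled day 14 was 30.3-fold lower than that labelled day 7 with TMM (25.8 to 35.9) and 55.5-fold lower with total counts (47.2 to 65.7). At the label day 14 it was 1.63-fold lower than at day 0 with TMM (1.35 to 1.98), which is under 2-fold. The other arm, miR-155-3p, is the strand mostly discarded from the hairpin, and its counts were 3, 103 and 0. Both arms were thus highest under the same label, and the 5p arm had 113 times the counts of the 3p arm in the library labelled day 7 (93.0 to 138).

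The hairpin of miR-155 is shown because both of its arms had their highest count at the label day 7. RefSeq places Mir155 at chr16:84714140-84714204 on the plus strand of GRCm38, and its RNA is written here with the arms in capitals.
Mir155: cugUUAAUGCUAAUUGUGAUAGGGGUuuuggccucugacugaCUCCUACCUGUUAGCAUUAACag
It lies in an exon of the noncoding host gene Mir155hg in both annotated transcripts. Mir155hg had 5, 0 and 0 counts in the gene libraries of day 0, 7 and 14, so the day 7 gene library held none under the label at which miR-155-5p had its 11624 counts. A count of 0 there allows up to 0.221 CPM on day 7 and 0.216 CPM on day 14 (3 counts).

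mmu-miR-146a-5p, known as a brake on signalling from Toll-like and interleukin-1 receptors, had 3457, 18794 and 630 counts, or 115, 449 and 38.8 CPM with TMM and 99.2, 654 and 30.8 CPM with total counts. It therefore had the same order of labels as miR-155-5p. At the label day 7 it was 3.91-fold higher than at day 0 with TMM (3.77 to 4.06) and 6.60-fold higher with total counts, the 8th and 9th highest ratios of all miRNAs tested. At the label day 14 it was 2.96-fold lower than at day 0 with TMM (2.72 to 3.23) and 3.22-fold lower with total counts. Only 1 other miRNA of 376 tested with TMM had a lower ratio in that comparison. Between the labels day 14 and day 7, miR-146a-5p was 11.6-fold lower with TMM and 21.2-fold lower with total counts. Its other arm, miR-146a-3p, was counted only in the library labelled day 7, with 14 counts.

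mmu-miR-146b-5p carries the same seed from another chromosome, and it did not share this pattern. It had 20299, 14828 and 13758 counts, or 674, 354 and 846 CPM with TMM and 582, 516 and 673 CPM with total counts. The library labelled day 7 stood at 0.526 times the level of that labelled day 0 with TMM (0.515 to 0.537), just short of the 2-fold threshold, and at 0.886 times with total counts. The library labelled day 14 was 2.39-fold higher than that labelled day 7 with TMM but 1.30-fold higher with total counts. The size of its dip at the label day 7 thus depends on the scaling. Its hairpin lies in an intron of Mfsd13a by GENCODE and inside the gene model Gm36493, which had 4, 7 and 14 counts in the gene libraries, while that of miR-146a lies between annotated genes.

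A ratio of counts inside 1 library does not depend on any scaling. There were 0.170, 1.27 and 0.0458 counts of miR-146a-5p for each count of miR-146b-5p in the libraries labelled day 0, 7 and 14. The counting intervals were 0.164 to 0.177, 1.24 to 1.30 and 0.0422 to 0.0496, and none overlapped. As counted, miR-146a-5p thus outnumbered its seed partner in the library labelled day 7 alone, where the ratio was 7.44 times that in the library labelled day 0. In the library labelled day 14 the ratio was 27.7-fold lower than in that labelled day 7. The names differ only by G18A and T21C, and the treatment of reads matching several names was not given in the sources used here. For miR-155-5p over miR-146b-5p the ratios were 0.0222, 0.784 and 0.0108.

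**Figure D3:**
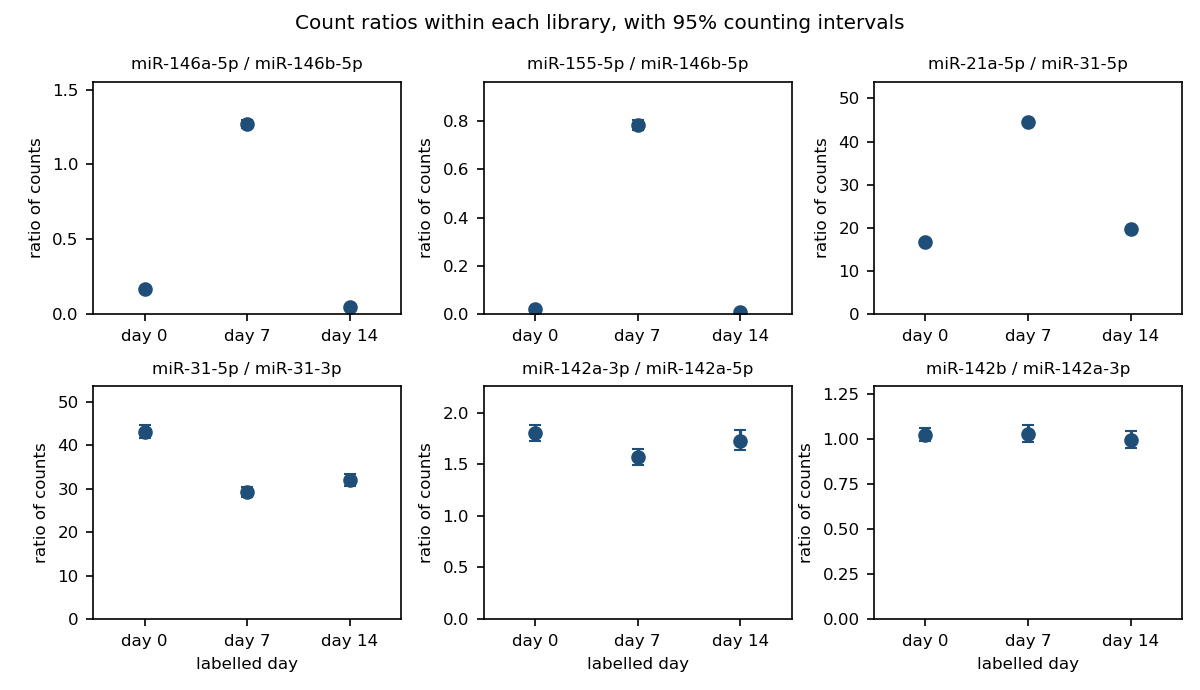
Ratios of counts between pairs of miRNAs within each library, by labelled day, with 95% counting intervals; axes start at 0. The ratio of miR-146a-5p to miR-146b-5p exceeds 1 at the label day 7 alone, while miR-142b and miR-142a-3p stay near 1 at each label.

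mmu-miR-21a-5p, which lowers Pdcd4 and other growth inhibitors in many cell types, made up 6.82%, 11.4% and 6.39% of all miRNA counts in the libraries labelled day 0, 7 and 14. With 2377136, 3281157 and 1305397 counts it ranked second, first and second in its library. TMM scaling gave 78957, 78436 and 80308 CPM, and total counts gave 68199, 114207 and 63855 CPM. It was level across the labels with TMM (0.993 times for the label day 7 over day 0, 1.02 times for day 14 over day 7). With total counts it was 1.67-fold higher and then 1.79-fold lower. None of these passed 2-fold, and whether miR-21a-5p changed at all hangs on the scaling. miR-21a-3p had 451, 673 and 290 counts, or 15.0, 16.1 and 17.8 CPM with TMM and 12.9, 23.4 and 14.2 CPM with total counts. The 5p arm outnumbered it by 5271, 4875 and 4501 to 1, and the counting intervals of these ratios overlapped.

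The related names miR-21b and miR-21c were rare. miR-21b, with 4 substitutions against miR-21a-5p, 1 of them in the seed (C4T, counted from 1 at the 5′ end of miR-21a-5p with its base first), had 116, 123 and 71 counts. miR-21c, with 5 substitutions, had 101, 122 and 56, and both were far below miR-21a-5p. The miR-21a hairpin (chr11:86584067-86584158) lies on the strand of Vmp1, a gene of autophagy, in an exon of 1 of its 8 annotated transcripts. Vmp1 stood at 104, 140 and 116 CPM in the gene libraries of day 0, 7 and 14, and was 1.35-fold higher on day 7 than on day 0 (1.26 to 1.45). Neither it nor miR-21a-5p reached 2-fold between any days.

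mmu-miR-31-5p was the second most abundant member, with 142548, 73574 and 65770 counts. TMM gave 4735, 1759 and 4046 CPM, and total counts gave 4090, 2561 and 3217 CPM, so the library labelled day 7 was lowest with both. It was 2.69-fold lower than that labelled day 0 with TMM (2.67 to 2.72) and 1.60-fold lower with total counts. The library labelled day 14 was 2.30-fold higher than that labelled day 7 with TMM and 1.26-fold higher with total counts, and stood at 0.855 times that labelled day 0 with TMM. The fall and the return passed 2-fold with TMM and not with total counts. miR-31-3p had 3309, 2516 and 2062 counts, or 110, 60.1 and 127 CPM with TMM and 94.9, 87.6 and 101 CPM with total counts. At the label day 7 it was 1.83-fold lower than at day 0 with TMM and 1.08-fold lower with total counts. It was 2.11-fold higher at day 14 than at day 7 with TMM and 1.15-fold higher with total counts.

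The arms of the miR-31 hairpin did not keep 1 ratio. There were 43.1, 29.2 and 31.9 counts of the 5p arm for each of the 3p arm, with intervals of 41.6 to 44.6, 28.1 to 30.4 and 30.5 to 33.3. The ratio was therefore highest in the library labelled day 0. Within libraries, miR-21a-5p outnumbered miR-31-5p by 16.7, 44.6 and 19.8 to 1. That ratio was 2.67-fold higher at the label day 7 than at day 0, whichever scaling is used. The hairpin lies inside the noncoding gene LOC106557447, which had 217, 210 and 361 counts in the gene libraries of day 0, 7 and 14. That host was 1.70-fold higher on day 14 than on day 0 (1.44 to 2.03).

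mmu-miR-142a-3p, a marker of blood cells in most tissues, had 5752, 3785 and 3464 counts, or 191, 90.5 and 213 CPM with TMM and 165, 132 and 169 CPM with total counts. At the label day 7 it was 2.11-fold lower than at day 0 with TMM (2.03 to 2.20) and 1.25-fold lower with total counts. At day 14 it was 2.36-fold higher than at day 7 with TMM and 1.29-fold higher with total counts. miR-142a-5p, from the other arm, had 3198, 2413 and 2003 counts, or 106, 57.7 and 123 CPM with TMM and 91.7, 84.0 and 98.0 CPM with total counts. It was 1.84-fold lower at the label day 7 than at day 0 with TMM and 1.09-fold lower with total counts. Its level at day 14 was 2.14-fold higher than at day 7 with TMM and 1.17-fold higher with total counts. As counted, miR-142a-3p outnumbered miR-142a-5p by 1.80, 1.57 and 1.73 to 1 at the labels day 0, 7 and 14. The counting intervals were 1.72 to 1.88, 1.49 to 1.65 and 1.64 to 1.83.

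The miR-142a hairpin is shown because another listed name copies its 3p arm from the opposite strand. RefSeq places Mir142 at chr11:87756864-87756927 on the plus strand of GRCm38, in an intron of the noncoding gene Mir142hg by GENCODE, which is not analysed here. Its arms are in capitals.
Mir142: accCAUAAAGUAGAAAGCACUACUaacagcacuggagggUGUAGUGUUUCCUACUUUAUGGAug
miR-142b: tCCATAAAgtaggaaacact
The 20 bases of miR-142b are the exact reverse complement of bases of miR-142a-3p, and its seed is in capitals as above. Its counts were 5898, 3903 and 3456, that is 1.03, 1.03 and 0.998 for each count of miR-142a-3p, and the counting intervals included 1 under every label. The strand setting was not given in the sources used here, and without it the reads behind these 2 names cannot be told apart. The level of miR-142a-3p, and with it the ratio of the arms, is therefore uncertain.

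Markers of blood cells were near 0 in the gene libraries. Of 12 such markers, Adgre1, Itgam, Tyrobp, Spi1 and Laptm5 had no count on any day, and Ptprc, which encodes the pan-leukocyte protein CD45, had 1, 0 and 0. Only Cd68 and Fcer1g had a mean of 1 CPM or more over the days, Coro1a had 20, 1 and 6 counts, and the summed level of all 12 was 7.66, 3.54 and 4.10 CPM on day 0, 7 and 14. Among blood cell miRNAs, the myeloid miR-223-3p had 80, 87 and 55 counts, the lymphocyte miR-150-5p 6, 46 and 9 and the erythroid miR-451a 6, 10 and 8. All of these stood below the 3198, 2413 and 2003 counts of miR-142a-5p. The same held for miR-144-3p, with 4, 4 and 2 counts. miR-486a-5p, which muscle also expresses, had 1230, 2422 and 446, close to miR-142a-5p at the label day 7 and below it at day 0 and day 14. Of the 8 cementoblast markers, all had a mean of 1 CPM or more, with 4 higher and 1, Dmp1, lower on day 7 than on day 0. Over all genes tested, 10.7% were higher and 10.1% lower in that comparison. Sp7, the osterix gene, was 23.1-fold higher on day 7 (19.4 to 27.5), and Ibsp, a bone matrix protein gene, had 6, 948 and 1190 counts.

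Counted together, 2 of the 9 members were higher and 2 lower in the library labelled day 7 than in that labelled day 0 with TMM, where 6.23% and 19.5% of all miRNAs tested were. The members that were higher were miR-155-5p and miR-146a-5p, and those lower were miR-31-5p and miR-142a-3p. With total counts the same 2 were higher and none was lower, where 26.1% and 4.27% of all miRNAs tested were. In the library labelled day 14 against that labelled day 0, none was higher and 1, miR-146a-5p, was lower, against 0.532% and 4.79% of all. The same held with total counts, against 0.563% and 5.35% of all. Between the labels day 14 and day 7, 5 were higher and 2 lower with TMM, against 21.6% and 14.1% of all, and with total counts 0 were higher and 2 lower, against 6.03% and 35.9%. Because the members were listed with their counts in these libraries known, nothing is read from these numbers of members.

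The median log2 ratio of the 9 members at the label day 7 over day 0 was -0.86, beside -0.29 over all miRNAs tested, with TMM, and -0.12 beside 0.48 with total counts. In both scalings 4 of the 9 lay above the median of all: miR-155-5p, miR-146a-5p and both arms of miR-21a. At day 14 over day 0 the members had a median of 0.16 beside -0.03 for all with TMM. At day 14 over day 7 the medians were 1.07 and 0.32 with TMM, and 0.20 and -0.61 with total counts.

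**Figure D4:**
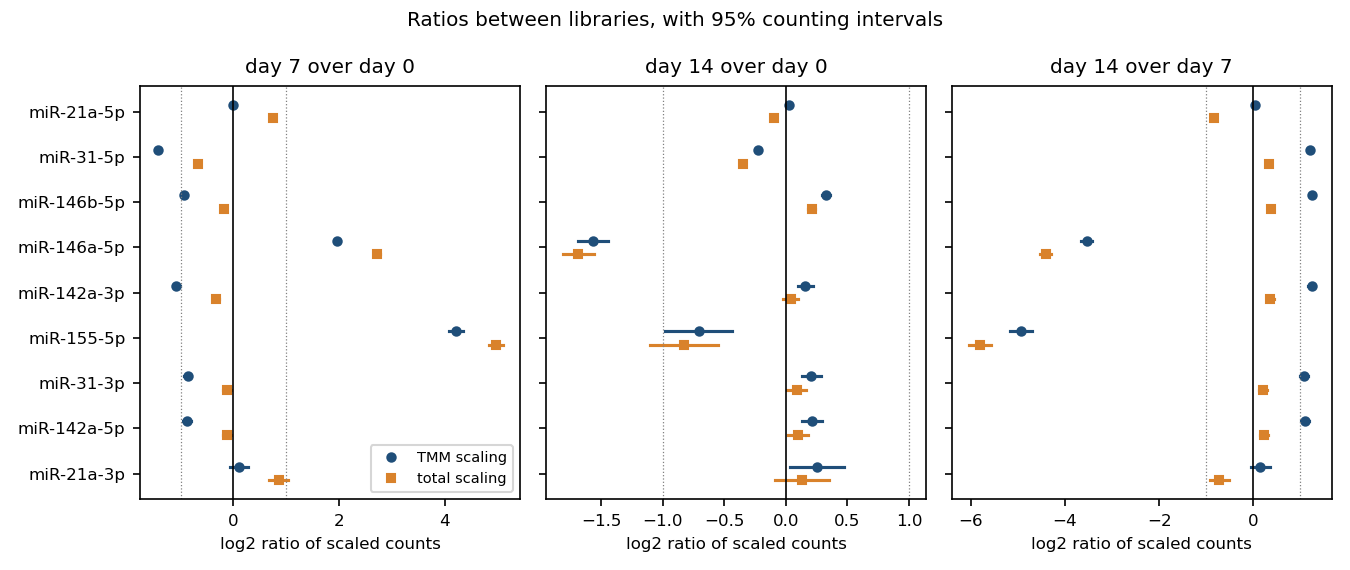
Log2 ratios of scaled counts of the 9 miRNAs between libraries, with 95% counting intervals as lines, for TMM (circles) and total-count scaling (squares); dotted lines mark 2-fold. miR-155-5p and miR-146a-5p lie beyond 2-fold at day 7 over day 0 with both scalings, and miR-31-5p and miR-142a-3p with TMM but not with total counts.

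The miRNAs most like each member were found among those with a mean of at least 100 CPM, by the distance between their pairs of log2 ratios (day 7 and day 14 labels over day 0). This rests on 3 libraries and describes likeness only. Nearest to miR-146a-5p was miR-344-3p at a distance of 0.22, with 3226, 18998 and 513 counts, followed by miR-125b-1-3p at 0.53, with 2977, 13226 and 737. Nothing came close to miR-155-5p, whose nearest miRNAs, miR-344-3p, miR-146a-5p and miR-125b-1-3p, lay at 2.35 to 2.54. miR-146b-5p lay at 0.037 from miR-1843b-5p, at 0.048 from miR-871-3p and at 0.10 from miR-30b-5p. The nearest to miR-31-5p were miR-351-5p, miR-199b-5p and miR-450b-3p at 0.12 to 0.15. miR-142a-3p lay nearest to miR-142b, miR-471-5p and miR-143-5p at 0.040 to 0.067, and miR-21a-5p nearest to miR-149-5p, miR-669a-5p and miR-32-5p at 0.049 to 0.062.

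**Figure D5:**
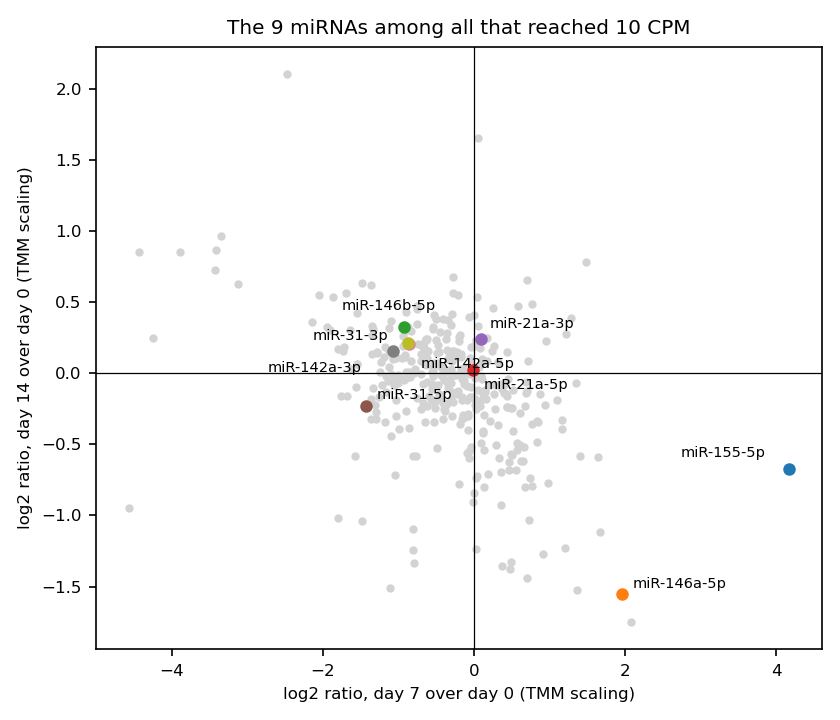
Log2 ratios with TMM scaling (0.5 CPM added) of the library labelled day 7 (x axis) and day 14 (y axis) over that labelled day 0, for the 369 miRNAs that reached 10 CPM in both comparisons; grey dots are other miRNAs and coloured dots the 9 members. miR-155-5p lies at 4.17 and -0.68, the farthest to the right of all, and miR-146a-5p at 1.96 and -1.55; the points of miR-31-3p and miR-142a-5p nearly coincide.

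Other miRNAs known from inflammatory responses did not all follow miR-155-5p. miR-147-3p, induced through Toll-like receptors in mouse macrophages, had 22, 108 and 17 counts, and miR-187-3p had 241, 475 and 114. Both were highest in the library labelled day 7, though miR-147-3p stayed under 10 CPM and the size of the difference in miR-187-3p depends on the scaling. miR-187-3p was 1.42-fold higher at the label day 7 than at day 0 with TMM (1.21 to 1.66) and 2.39-fold higher with total counts (2.04 to 2.80). At day 14 it was 1.62-fold lower than at day 7 with TMM and 2.96-fold lower with total counts. miR-132-3p had 675, 680 and 319 counts, or 22.4, 16.3 and 19.6 CPM with TMM and 19.4, 23.7 and 15.6 CPM with total counts. Its order of labels thus depends on the scaling. miR-9-5p had 1099, 895 and 814 counts, or 36.5, 21.4 and 50.1 CPM with TMM and 31.5, 31.2 and 39.8 CPM with total counts. It was highest at the label day 14 with both scalings. miR-203-3p, best known from the epidermis, had 2062, 131 and 1326 counts and was 21.9-fold lower at the label day 7 than at day 0 with TMM (18.3 to 26.3) and 13.0-fold lower with total counts.

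The gene libraries give the levels of messenger RNAs that these miRNAs are reported to lower. The lists hold 55 entries in 5 groups, of which 50 had a mean of 1 CPM or more over the 3 gene libraries and are called measured. Since the gene and miRNA labels may not match, genes and miRNAs are set side by side with no link drawn. Over all genes that reached 1 CPM in the higher library, 10.7% were higher and 10.1% lower on day 7 than on day 0, and 8.26% were higher and 6.69% lower on day 14 than on day 0. Between day 14 and day 7 the shares were 1.68% and 1.27%, and no listed target passed the rule.

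The sites below show the bases of 3′ UTRs that the seeds can pair with, for 1 or 2 reported targets of each of 5 seeds. They are GENCODE transcripts on GRCm38, with the match to the seed in capitals.
Socs1, miR-155-5p: tgccgctgtgccgcAGCATTAa
Traf6, miR-146a-5p and miR-146b-5p: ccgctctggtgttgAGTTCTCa
Irak1, miR-146a-5p and miR-146b-5p: gactcagaggtcaaAGTTCTCa
Pdcd4, miR-21a-5p: gtgtgggtgttctgATAAGCTa
Sp7, miR-31-5p: cagctccagggtccTCTTGCCa
Rac1, miR-142a-3p: gtagagattactttACACTACa
They lie at chr16:10784206-10784227 (minus strand, Socs1), chr2:101697945-101697966 (plus, Traf6), chrX:74015393-74015414 (minus, Irak1) and chr19:53929418-53929439 (plus, Pdcd4). Those of Sp7 and Rac1 lie on minus strands at chr15:102358095-102358116 and chr5:143506246-143506267. Each match is followed by A. The 3′ UTR of Traf6 held 4 such matches and that of Irak1 held 2. A match to the 7 seed bases was found in 11 of 13 UTRs of the miR-155 list, 7 of 10 of the miR-146 list, 9 of 12 of the miR-21 list, 9 of 13 of the miR-31 list and 6 of 7 of the miR-142 list.

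Of the miR-155 list, 11 genes were measured, with 4 higher and 1 lower on day 7 than on day 0. The lower one was Socs1, the inhibitor of cytokine receptor signalling, with 82, 26 and 48 counts on day 0, 7 and 14. It was 3.01-fold lower on day 7 than on day 0 (1.91 to 4.87). The higher ones were Trp53inp1, a p53-induced stress gene (388, 7960 and 6025 counts), Maf (1440, 4328 and 5005), Jarid2, a Polycomb partner (868, 2684 and 2398), and Fos (54, 252 and 132). All 4 were also higher on day 14 than on day 0, as was Cebpb, a transcription factor gene of inflammation, at 2.15-fold (1.89 to 2.44). Tab2, an adaptor of TAK1 kinase, had 2458, 2926 and 3597 counts and did not reach 2-fold. The list's median log2 ratio was 0.32 on day 7 and 0.58 on day 14 over day 0, beside 0.00 and -0.01 over all genes.

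Of the miR-146 list, 9 genes were measured, none of them higher and 2 lower on both induced days. Cxcr4, a chemokine receptor gene of the list singled out after its values were seen, had 0, 17 and 18 counts and passed the 2-fold rule as higher on both induced days, but its mean was under 1 CPM and it is not among the 9. Irak2, a kinase of interleukin-1 receptor signalling, had 401, 122 and 163 counts and was 3.13-fold lower on day 7 than on day 0 (2.55 to 3.87). Card10, a scaffold that leads to NF-κB, had 575, 106 and 76 counts and was 7.39-fold lower on day 14 than on day 0 (5.81 to 9.51). Traf6, the ubiquitin ligase downstream of Toll-like receptors, had 724, 615 and 699 counts, and Irak1 had 1116, 682 and 901. Neither reached 2-fold. Smad4 (1515, 2052 and 1838 counts) also stayed under 2-fold. The list's median log2 ratios were -0.22 and -0.27 on day 7 and day 14 over day 0.

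Of the 12 measured genes of the miR-21 list, 3 were higher and 1 lower on day 7 than on day 0. Rhob, a small GTPase gene, had 310, 712 and 798 counts and was 2.41-fold higher on day 7 than on day 0 (2.11 to 2.76). Btg2, an antiproliferative gene, was 2.69-fold higher on day 7, while Tgfbr2, a TGF-β receptor, was 2.36-fold lower. On day 14, 2 genes of the list, Rhob among them, were higher than on day 0, and none was lower. Pdcd4, an inhibitor of translation, had 405, 462 and 396 counts, and Spry1, an ERK pathway inhibitor, 18, 21 and 31. Tpm1 (2798, 2388 and 2408 counts) and Timp3 (1412, 2227 and 1497) did not reach 2-fold.

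Of the 11 measured genes of the miR-31 list, Sp7 was higher and Fzd3, a Wnt receptor, lower on day 7 than on day 0, and on day 14 Runx2 was also higher. Runx2, the master regulator of bone-forming cells, had 3481, 6270 and 8358 counts and was 2.46-fold higher on day 14 than on day 0 (2.36 to 2.56). Sp7 had 138, 3032 and 3441 counts, and Fzd3 had 81, 4 and 7. Rhoa (4734, 5226 and 5495 counts), Rdx (3002, 2807 and 3238) and Lats2 (703, 959 and 914) stayed under 2-fold. The median log2 ratios of the list were -0.03 on day 7 and 0.21 on day 14 over day 0.

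Of the 7 measured genes of the miR-142 list, Arntl, which encodes the clock factor BMAL1, was higher on day 7 than on day 0, and Arntl and Tgfbr1, a TGF-β receptor, on day 14. Arntl had 361, 713 and 877 counts and Tgfbr1 1168, 1756 and 2335. Rac1 (6349, 7937 and 8762 counts), Rock2 (4448, 4845 and 5025), Il6st (3229, 3783 and 3787), Adcy9 (939, 1564 and 1392) and Apc (2676, 1762 and 2015) did not reach 2-fold. The median log2 ratios of the list were 0.39 and 0.50 on day 7 and day 14 over day 0.

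Across the 8972 genes with a 3′ UTR that were compared, genes with a seed match moved little apart from the rest. The motif AGCATTA of miR-155-5p was in 10.3% of UTRs, AGTTCTC of the miR-146 pair in 13.7%, ATAAGCT of miR-21a-5p in 8.44%, TCTTGCC of miR-31-5p in 14.1% and ACACTAC of miR-142a-3p in 7.65%. The motifs were searched on the transcript's strand only, in UTRs of unequal length. With the miR-155-5p motif the median log2 ratio on day 7 over day 0 was 0.03, against -0.02 without it, and on day 14 over day 0 it was 0.07 against -0.02. The widest gap among these 5 motifs was for miR-21a-5p on day 14 over day 0, at 0.10 with the motif and -0.02 without. For the miR-146 pair the day 7 medians were 0.01 and -0.01.

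Genes of the pathways known to drive these miRNAs were measured in the gene libraries. Over all genes tested, 10.7% were higher and 10.1% lower on day 7 than on day 0. On day 14 the shares were 8.26% and 6.69%, and the counts of each list below stand beside these shares. The pathway genes were picked out after their values were seen, so nothing is read from how many passed the rule. Of 16 NF-κB pathway genes, 2 were higher and 1 lower on day 7 than on day 0, and the same counts held on day 14. Nfkbia, the inhibitor IκBα, had 597, 1964 and 1662 counts and was 3.45-fold higher on day 7 than on day 0 (3.15 to 3.79). Tnfaip3, the NF-κB inhibitor A20, had 187, 513 and 416 counts and was 2.88-fold higher on day 7 than on day 0 (2.43 to 3.42). The lower gene on both days was Irak2, also in the miR-146 list, at 3.13-fold lower on day 7 than on day 0 (2.55 to 3.87). Nfkb1 and Rela, which encode the main subunits, had 1802, 1019 and 1244 and 899, 635 and 713 counts and did not reach 2-fold. Also under 2-fold, Nfkb2, Bcl3 and Nfkbie were 1.84-, 1.86- and 1.72-fold lower on day 7 than on day 0, while Ikbkg was 1.45-fold higher. The median log2 ratio of the 16 genes was -0.27 on day 7 and -0.28 on day 14 over day 0. Over all genes it was 0.00 and -0.01. Of 8 genes of AP-1 and STAT3, 5 were higher on day 7 and 3 on day 14 than on day 0, and none was lower; Fos, Fosl2 and Junb passed on both days and Fosb and Jun on day 7. Stat3 itself had 2367, 2857 and 2607 counts. Of 8 measured genes of miRNA processing and loading, Ago4 alone passed the rule, being 2.25-fold higher on day 7 than on day 0, while Drosha (2822, 1723 and 2103 counts) and Dicer1 (1628, 1476 and 1744) did not.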

How the data were processed

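The authors deposited raw whole-number counts and TPM values for mature miRNAs, and raw counts for genes, in 1 column per labelled day. Their TPM were the deposited counts times 1 constant per library, with no length term. The submitters' processing notes name mm10, HTSeq, HISAT2, TopHat, Cufflinks and DESeq, with versions, roles, the miRNA aligner, its treatment of reads matching several names, and strand all not given in the sources used here. Such reads, or unrecorded strand, can move counts between near-identical or antisense names. In the miRNA count table, 2 blank lines were left out.

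Counts were scaled with TMM factors (edgeR 4.0.16, R 4.3.3) or by total counts. With 1 library per day no test was possible. Ratios carry the exact Clopper-Pearson 95% interval conditional on the summed counts. A feature was called at 2-fold (log2 of CPM plus 0.5), with 10 CPM for miRNAs or 1 CPM for genes in the higher library and an interval excluding 1. A count of 0 was read as up to 3 counts. The code was tested on simulated counts. Gene libraries held 13224690, 14034518 and 14439666 counts on day 0, 7 and 14, and 1665, 1784 and 1414 miRNA names had a count. The members, target genes and marker lists were chosen with earlier results of these data known. Named were all members, the other arms, hosts, the 3 nearest miRNAs with a mean of 100 CPM or more, up to 4 measured targets of each list by abundance and up to 4 by ratio, and a few classical targets; some of these targets are not reported here. Cebpb and the pathway genes were picked out after their values were seen. Seed matches were searched in the longest 3′ UTR of each gene in GENCODE, and hairpins were taken from RefSeq (GRCm38.p6). Alternatives were DESeq2 size factors, upper-quartile factors, the deposited TPM, other minimums, pseudocounts and thresholds, thinning, and TMM without the library labelled day 7.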

Additional observations from a re-analysis of the deposited data

How the results depend on the processing

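No paired analysis was possible because each labelled day has 1 library and the labels give no replicate numbers; leaving out a replicate was not possible either. The rise of miR-155-5p and miR-146a-5p at the label day 7 and the fall of miR-146a-5p at the label day 14, each over day 0, kept their direction under every scaling tried. With total counts, or with the authors' TPM, the members lower at day 7 over day 0 fell in number to 0 from 2 and those higher at day 14 over day 7 to 0 from 5, and 4 of the 27 member ratios changed sign. DESeq2 size factors changed the sign of 1 of the 27 and upper-quartile factors of 0. At 4-fold, 1 member was higher and 0 lower at day 7 over day 0, 0 were lower at day 14 over day 0, and 0 were higher at day 14 over day 7. The TMM factors without the library labelled day 7 moved the day 14 over day 0 log2 ratios by at most 0.0057.

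Among all miRNAs at day 7 over day 0, 24 were higher with TMM, against 104 with total counts or the authors' TPM, 57 with no minimum, 11 at 50 CPM and 7 at 4-fold. The 75 lower became 17 with total counts or TPM and 11 at 4-fold. At day 14 over day 0, the 2 higher became 7 with upper-quartile factors, 10 with no minimum and 1 at 4-fold, and the 18 lower became 33 with no minimum, 9 at 50 CPM and 0 at 4-fold. At day 14 over day 7, the 83 higher became 24 with total counts or TPM, 126 with no minimum and 18 at 4-fold, and the 54 lower became 143 with total counts or TPM, 115 with no minimum, 26 at 50 CPM and 15 at 4-fold. The fewer calls at a higher minimum or threshold follow from how those are built. Between scalings, the ratios of all miRNAs in a comparison shift by the same factor, which changes the number of calls. What makes the scalings differ was not tested. Counts of target genes were recomputed with total counts and DESeq2 size factors alone, and under both stayed within 1.5 times of their TMM values. One library per day limits every comparison: counting intervals leave out differences between cultures.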
